A study of Homo sapiens with 6 samples.

Results

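The miR-31 precursor gives a 5p and a 3p mature miRNA, and both were followed here in Panc-1 cells, a cell line derived from pancreatic ductal adenocarcinoma (PDAC) of human origin. The 2 miRNAs were taken by probe name, hsa-miR-31-5p and hsa-miR-31-3p, out of the 2565 miRNA probes of the array, and each had 1 spot per array. RNA came from untreated control cells on 3 arrays and from cells kept for 72 h with 10 ng/mL of TGF-β on the other 3. All samples were of the same line and carried 1 dye, Cy5, and nothing in the labels says whether the replicates were separate cultures, so that p-values measure only the spread between these samples. The control arrays shared 1 slide and the TGF-β arrays shared a second one, so slide and treatment cannot be told apart.

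A miRNA is cut from one side of a hairpin precursor, loaded into an Argonaute protein and guided to its targets mainly by the seed, its bases 2 to 8. One arm of the hairpin is usually kept as the guide strand and the other is mostly lost as the passenger strand, and for miR-31 the 5p arm is known as the guide. miR-31 is known for its variable level in carcinomas, and roles for and against invasion have been described in different tumors. TGF-β is a secreted cytokine that induces the epithelial–mesenchymal transition (EMT) in PDAC cells, and the comparison asks whether miR-31 differed between cells with and without it.

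miR-31 is encoded by MIR31 on the minus strand of chromosome 9, chr9:21512115-21512185 of GRCh38.p14, in band 9p21. In RefSeq it lies inside the interval of its lncRNA host gene MIR31HG (chr9:21454268-21559798), and the tables used here do not say whether in an exon or an intron. CDKN2A, the gene of the tumor suppressors p16 and p14ARF, has the nearer end of its interval 455567 bp from MIR31, with MTAP between them at 290451 bp. This stretch of 9p21 is often deleted in PDAC, and Panc-1 is known as a line that has lost CDKN2A, which is why presence or absence of miR-31 was of interest. The arrays measured small RNA, and neither the copy number of MIR31 nor the mRNA of its neighbors was measured.

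The RefSeq sequences of the mature 5p arm, with its seed in capitals, and of the 71-base hairpin, with the 5p arm in capitals, show the molecule that the brighter probe reads. The 5p arm covers bases 8 to 28 of the hairpin.
hsa-miR-31-5p: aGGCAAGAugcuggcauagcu
MIR31 hairpin: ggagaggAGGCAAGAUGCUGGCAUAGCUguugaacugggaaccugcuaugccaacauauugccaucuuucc
None of the other mature human miRNAs in the RefSeq table, which names 2370, has the same bases 2 to 8. Among the 2252 other array miRNAs with a sequence in that table, the closest to miR-31-5p by number of edits were miR-1256 and miR-5093, each 7 edits away. The longest stretch in common was 9 bases, in miR-4784, miR-4432 and miR-5087. miR-1256 was detected on 2 of 6 arrays, miR-5093 on 5, miR-4784 on 4 and the other two on 0. None of the closest sequences was thus a near copy of miR-31-5p.

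Both arms were detected on all 6 arrays, as were 1282 of the 2565 miRNA probes (49.98%). A spot was called detected above the mean plus 2 SD of the array's blank spots, a limit of 19.5 to 22.8 intensity units. The miR-31-5p spot gave 2194, 2578 and 2930 units in control cells, and with TGF-β it gave 3100, 3922 and 4054 units. Every TGF-β array was above every control array before any normalization, and the spots were 3335 to 7391 blank-spot SDs above the blank mean. The miR-31-3p spot gave 132, 128 and 168 units in control cells, and with TGF-β it gave 182, 170 and 174 units. The groups did not overlap here either, but the highest control array and the lowest TGF-β array were close, and the spots lay 174 to 287 SDs above the blank mean. How many of all miRNA probes had raw signals that did not overlap was not counted. In the normalized values used below, the groups lay apart with TGF-β higher for 8.80% of 1455 miRNAs. With a stricter limit of 3 SD, all 12 spots of the 2 probes were still detected.

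**Figure D1:**
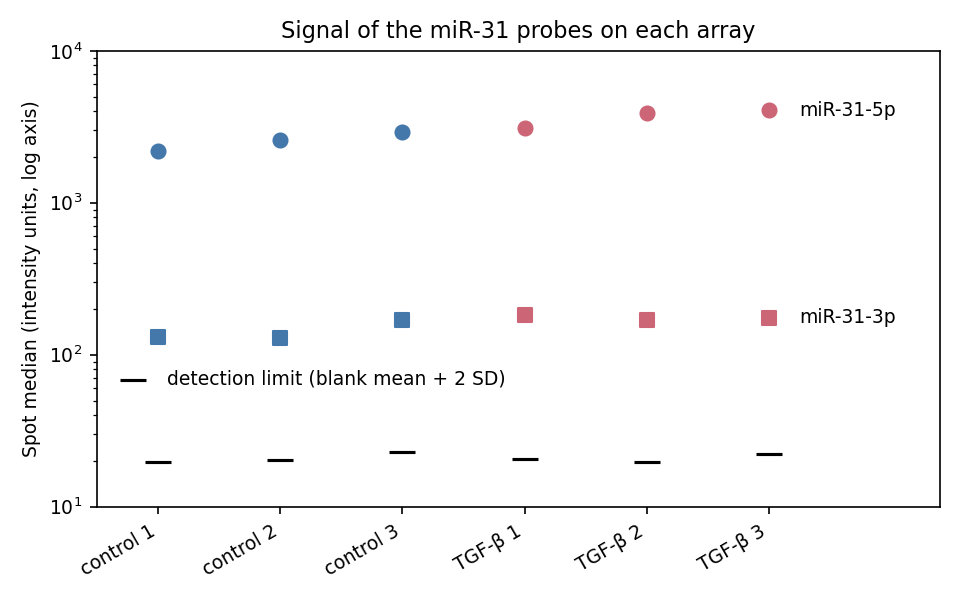
Spot median of the miR-31-5p (circles) and miR-31-3p (squares) probes on each of the 6 arrays, in intensity units on a log axis, with control arrays in blue, TGF-β arrays in red and the detection limit of each array as a black dash. Every spot is far above the limit of 19.5 to 22.8 units, and the 5p spots run from 2194 to 4054 units.

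The miRNA genes around MIR31 gave little signal in the same RNA. Within 10 Mb of MIR31 on chromosome 9, RefSeq lists 6 other miRNA genes, with 11 probes on the array. Of these probes, 4 were detected on no array, 5 on 1 to 4 arrays, and 2 on all 6 arrays, compared with 49.98% of all miRNA probes detected on all arrays. Both of the latter read MIR491, which lies 796010 bp from MIR31. The signal of miR-491-5p was 18.1 to 29.6 SDs above the blank mean and that of miR-491-3p was 2.30 to 4.36 SDs above it. Probes of different sequence bind with unequal strength, so these values show detection and not the order of RNA levels. In TGF-β-treated cells, the log2 fold change was 0.14 for miR-491-5p (adjusted p = 0.772 from limma) and -0.019 for miR-491-3p (adjusted p = 0.997 from limma). The only other neighbor to enter the test, miR-873-3p, was detected on 4 arrays and had a log2 fold change of 0.45 (limma, adjusted p = 0.705).

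**Figure D2:**
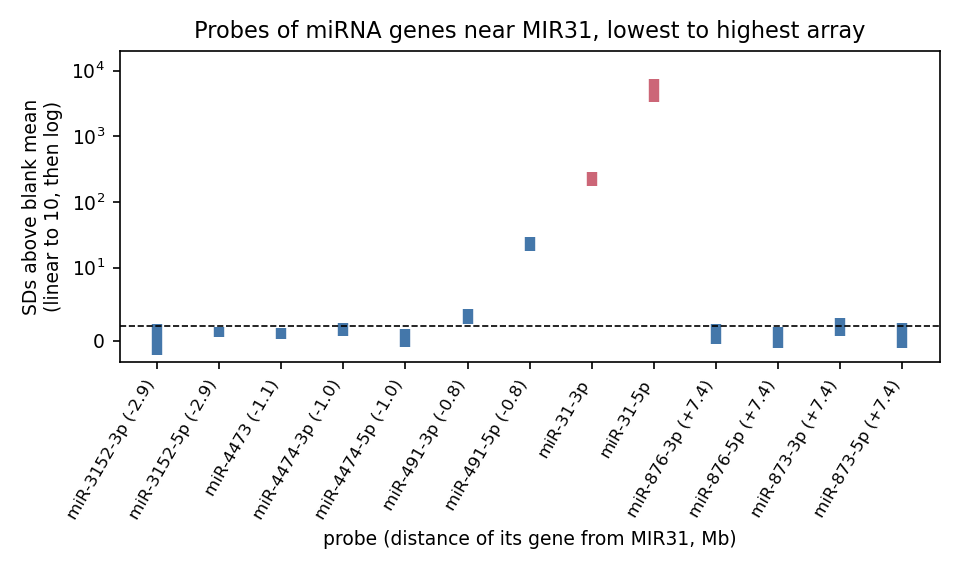
Range over the 6 arrays of the signal of each probe of the miRNA genes within 10 Mb of MIR31, in SDs above the mean of the blank spots, on an axis that is linear to 10 and logarithmic above it, ordered along the chromosome with the distance of the gene in Mb and with the detection limit of 2 SD as a dashed line. The miR-31 arms (red) and both arms of miR-491 were above the limit on all 6 arrays, and the other probes reached at most 3.15 SDs.

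miR-31-5p, the guide strand, was higher on every TGF-β array than on any control array, by 1.25-fold after quantile normalization, but the difference did not pass the adjusted threshold. For this comparison the blank mean was subtracted from each signal, the miRNA probes were quantile normalized on the log2 scale and limma was fitted to the 1457 miRNAs that were above the detection limit throughout at least 1 of the groups. The log2 values were 11.34, 11.45 and 11.34 in control cells, compared with 11.56, 11.62 and 11.91 after TGF-β. Control replicates 1 and 3 have the same value because the spot had the same place in the order of brightness on both arrays, which is all that this normalization keeps. The means were 11.38 ± 0.060 (SD, n = 3) and 11.70 ± 0.19 (SD, n = 3). The larger SD among the TGF-β arrays holds for these values, while without normalization the SD was 0.21 in each group. In limma, the log2 fold change of 0.32 had a standard error of 0.083 and an adjusted p of 0.0631. Its 95% interval, not adjusted for the number of miRNAs, was 1.10-fold to 1.42-fold. Without TGF-β replicate 3, the log2 fold change was 0.21. The exact permutation test gave p = 0.1 (2-sided), the smallest that 3 arrays against 3 allow.

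miR-31-3p, the passenger strand, was 1.27-fold higher in TGF-β-treated cells and did not pass the adjusted threshold either. Its log2 values were 6.97, 6.89 and 6.97 in control cells, compared with 7.51, 7.13 and 7.24 after TGF-β, so that the groups lay apart and TGF-β replicate 1 was the highest. The means were 6.94 ± 0.044 (SD, n = 3) and 7.29 ± 0.20 (SD, n = 3). In limma, the log2 fold change of 0.35 had a standard error of 0.10 and an adjusted p of 0.109, with an unadjusted 95% interval of 1.09-fold to 1.49-fold. Without TGF-β replicate 1, the log2 fold change was 0.23. The exact permutation test gave p = 0.1 (2-sided), again the smallest possible. The unadjusted p from limma was 0.00273 for miR-31-5p and 0.00576 for miR-31-3p. The within-group SD of the fit was 0.14 for each arm, and its median over all miRNAs tested was 0.21. That median includes dim probes, whose SD was often larger, so it is no standard for a probe as bright as miR-31-5p.

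Of the 1457 miRNAs tested, limma called 58 (3.98%), with 38 (2.61%) higher and 20 (1.37%) lower after TGF-β. The split into higher and lower was 27 and 4 with the deposited values, 27 and 8 without normalization, 37 and 12 with median scaling, and 17 and 8 without TGF-β replicate 2. Before adjustment, 202 (13.9%) had a p under 0.05. Of the miR-31 arms, 0 were among the called miRNAs and both were among the 202. The groups did not overlap, with TGF-β higher, for 128 of 1455 miRNAs with a value on all arrays (8.80%), and both miR-31 arms were among them. In the order of log2 fold changes from the highest, miR-31-3p had place 164 and miR-31-5p place 184 of 1457.

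The size of the difference for miR-31-5p depended on how the arrays were scaled. When each array was scaled to the median of the miRNAs detected on all arrays, the log2 values of miR-31-5p were 11.17, 11.43 and 11.28 in control cells, compared with 11.69, 11.88 and 11.97 after TGF-β. Its log2 fold change was then 0.55 (95% interval 0.32 to 0.79, adjusted p = 0.00504 from limma), 1.47-fold, and miR-31-3p had 0.38 (95% interval 0.17 to 0.59, adjusted p = 0.0475 from limma), 1.30-fold. Scaling to the 75th percentile gave 0.51 for miR-31-5p (adjusted p = 0.00176 from limma) and 0.34 for miR-31-3p (adjusted p = 0.0945 from limma). Both arms thus passed the threshold with median scaling, miR-31-5p alone with 75th percentile scaling and neither in the fit with quantile normalization given above. With the same quantile-normalized values and a robust limma fit, miR-31-5p passed (adjusted p = 0.0316). The median log2 fold change of all miRNAs tested was -0.013 with quantile normalization, 0.015 with median scaling and -0.026 with 75th percentile scaling. Over the 129 brightest of the miRNAs detected on all arrays, the top 10%, which include miR-31-5p but not miR-31-3p, the median was -0.023, 0.046 and 0.0050 in the same order.

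**Figure D3:**
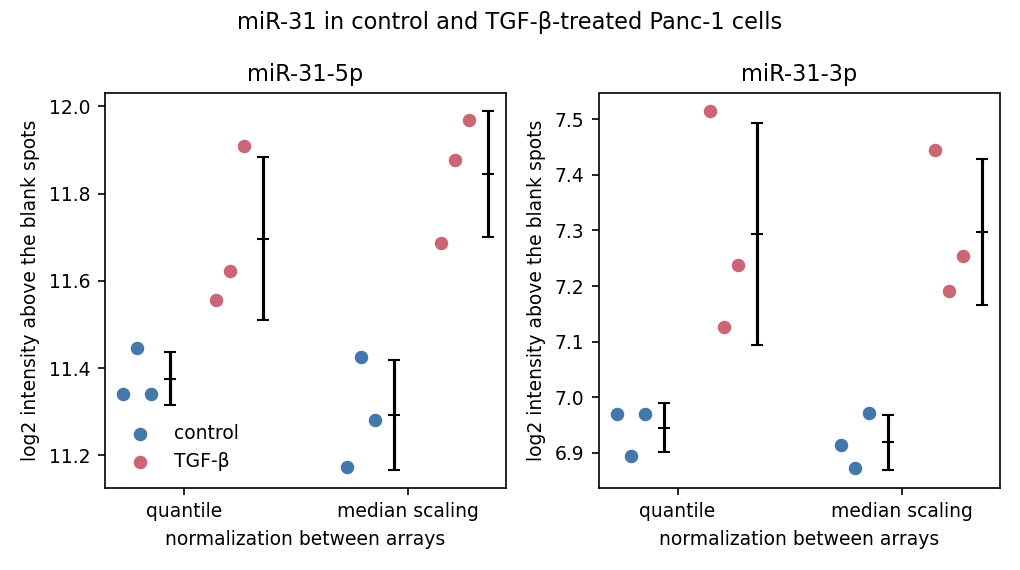
The log2 intensity above the blank spots of miR-31-5p (left) and miR-31-3p (right) on each control (blue) and TGF-β (red) array with quantile normalization and with median scaling, with black bars for the mean ± SD of 3 arrays and a separate vertical axis for each arm. The groups lie apart in each panel, and for miR-31-5p the gap between the means is 0.32 with quantile normalization and 0.55 with median scaling.

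In the authors' processed values, which are linear and scaled so that the detected miRNAs of each array have a median of 25, miR-31-5p had 8970, 11036 and 9801 in control cells, compared with 12825, 18661 and 15806 after TGF-β. The ratio of the means, 15764 ± 2918 (SD, n = 3) to 9936 ± 1040 (SD, n = 3), was 1.59. miR-31-3p had 468, 470 and 494 in control cells, compared with 678, 725 and 602 after TGF-β, a ratio of 1.40. TGF-β replicate 2, the highest array for both, also had the largest scale factor, 4.78, compared with 3.37 to 4.31 on the control arrays and 3.92 to 4.16 on the other TGF-β arrays. With the blank mean subtracted and no scaling at all, the ratios of the group means were 1.44 for miR-31-5p and 1.27 for miR-31-3p. In limma, the log2 fold changes of the processed values were 0.65 (adjusted p = 0.103) and 0.48 (adjusted p = 0.248).

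Control spots on the same arrays were also compared between the slides. Of the 46 kinds of control probe, 16 were brighter than 2 times the highest blank mean on every array. Without normalization, their log2 differences of TGF-β minus control ran from -0.28 to 0.16 with a median of -0.072. On the same scale the differences were 0.53 for miR-31-5p (limma, adjusted p = 0.22) and 0.35 for miR-31-3p (limma, adjusted p = 0.62). Each slide held 1 group, so an effect of the slide on the miR-31 spots themselves and one of TGF-β cannot be told apart.

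The local background of the spots was not used for the values above, because it was higher around brighter spots, with a median of 0.434 to 0.990 times the signal over the miRNA spots above 200 units of an array. At the miR-31-5p spot it was 1.02, 0.45 and 0.90 times the signal in control cells and, with TGF-β, 1.01, 0.53 and 0.87 times the signal, while the blank spots of the same arrays had means of 18.2 to 21.3 units. At the miR-31-3p spot it was 0.59 to 1.08 times the signal. Subtracting it by limma's normexp method (offset 50) left miR-31-5p at 0.22 on the log2 scale, with a standard error of 1.47 (limma, adjusted p = 0.992), and an offset of 0 left it at 0.028, with a standard error of 2.17 (limma, adjusted p = 0.998). For miR-31-3p the value was below 0, at -0.11 with an offset of 50 (limma, adjusted p = 0.990, standard error 0.22) and -0.20 with an offset of 0 (limma, adjusted p = 0.992, standard error 0.46). Only with the local background, at either offset, did the direction of an arm change among the alternatives that were run, and then for miR-31-3p alone.

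**Figure D4:**
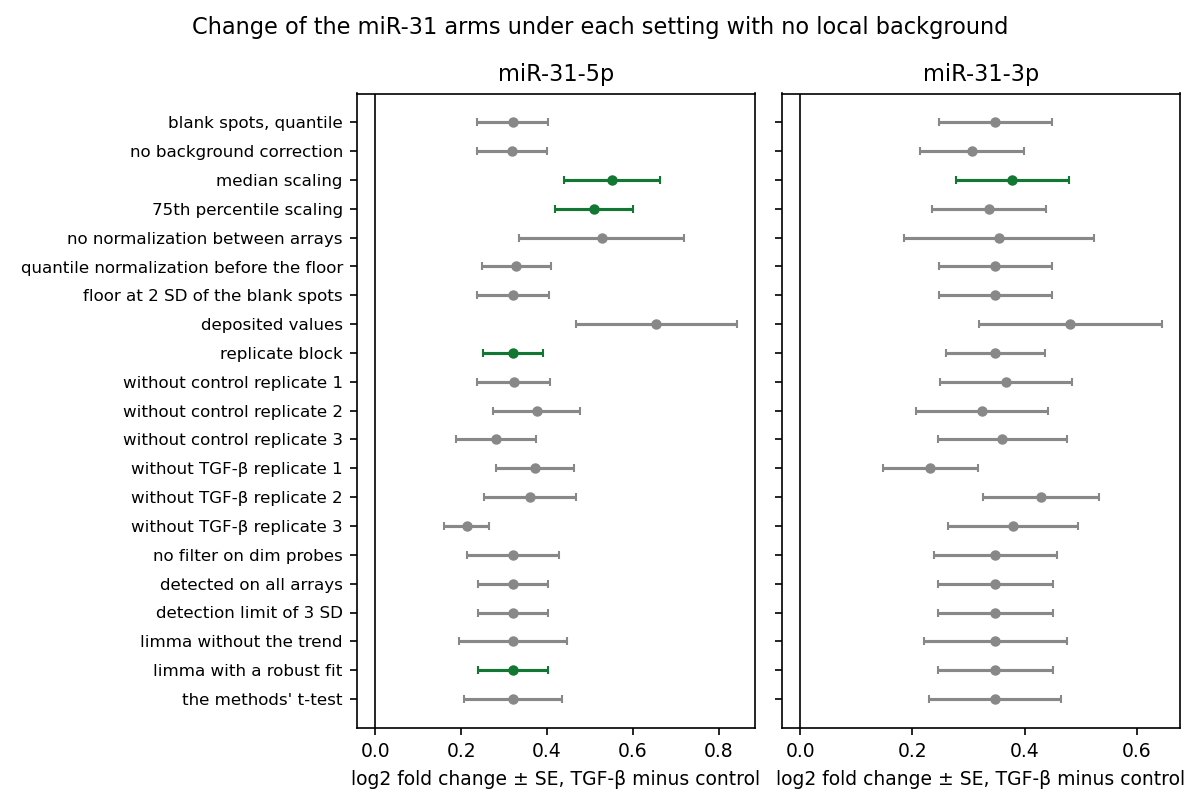
The log2 fold change of TGF-β minus control ± standard error for miR-31-5p (left) and miR-31-3p (right) in the analysis with blank spots and quantile normalization and in each alternative that does not use the local background, with those at an adjusted p under 0.05 in green. All points are above 0, and miR-31-5p lies between 0.21 and 0.65. With the local background, not drawn, miR-31-3p was below 0.

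The signal ratio of the arms overlapped between the groups. The ratio of the blank-subtracted signal of the 5p probe to that of the 3p probe was 19.2, 23.5 and 19.8 for the control arrays, compared with 18.9, 25.7 and 26.3 with TGF-β. The means were 20.8 ± 2.32 (SD, n = 3) and 23.6 ± 4.09 (SD, n = 3). Since each arm is read by its own probe, this is a ratio of signals and not of RNA molecules, but a change in it between the groups does not depend on the probes' strength or on a factor common to the array. On the log2 scale that change was 0.17 (95% interval -0.32 to 0.67, exact permutation test, 2-sided p = 0.4). With quantile normalization, which can alter the ratio within an array, it was -0.027 (95% interval -0.57 to 0.52, exact permutation test, 2-sided p = 0.9). When single arrays were left out, this value ran from -0.17 (without TGF-β replicate 3) to 0.14 (without TGF-β replicate 1). A change in the use of the arms was not detectable at this number of arrays, and the intervals reach a change of 0.67 on the log2 scale.

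Among the 321 precursors with both arms detected on all arrays, both arms lay apart with TGF-β higher for 12 (3.74%), of which miR-31 was 1, and both arms were called higher by limma for 5 (1.56%), without miR-31. The groups lay apart in the difference between the arms for 33 of these precursors (10.3%), and miR-31 was not among them. The middle 90% of the changes in arm difference ran from -0.51 to 0.40 on the log2 scale, and that of miR-31 was inside this range. Within the groups, the deviations of the arms from their group means had a correlation of -0.44 over the 6 arrays. TGF-β replicate 3 was the highest array for miR-31-5p and TGF-β replicate 1 for miR-31-3p. These points share 1 normalization and are given as a description.

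**Figure D5:**
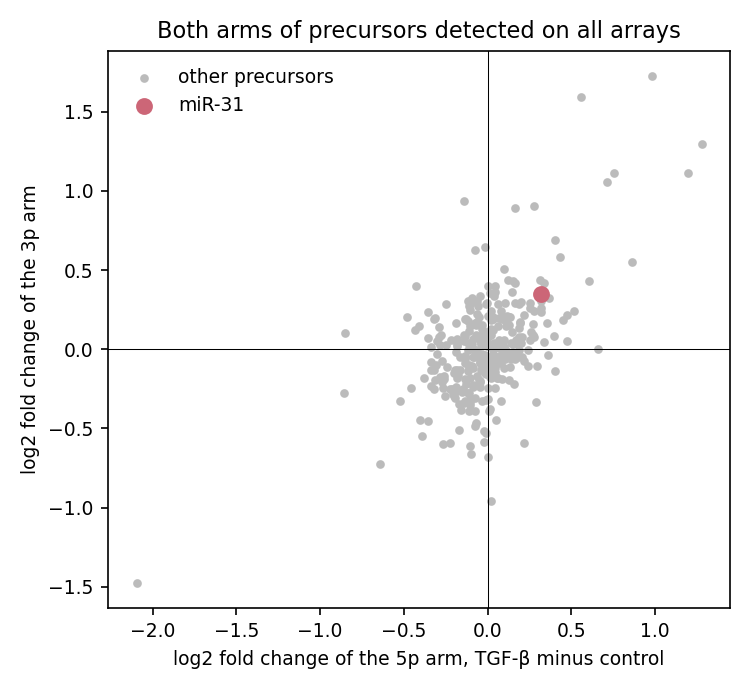
Change in the 3p arm against change in the 5p arm (log2 fold change of TGF-β minus control, quantile normalization) for 321 precursors with both arms detected on all arrays, with miR-31 in red. miR-31 lies among other precursors in the quadrant where both arms are higher, at 0.32 and 0.35, while its 3p arm was below 0 with the local background.

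Over the 6 arrays, the miRNAs with the log2 pattern most like that of miR-31-5p by Pearson correlation, out of the 1281 others detected on all arrays, were miR-495-5p (0.967), miR-28-5p (0.966), miR-18a-3p, miR-1248 and miR-5187-5p (0.963). miR-31-3p itself, with a correlation of 0.532, had place 216. For miR-31-3p the closest were miR-1538 (0.947), miR-376a-3p (0.945), miR-300, miR-6840-5p and miR-6786-3p (0.903). The 6 arrays lie on 2 slides and share 1 normalization, and the values describe only these arrays.

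As a setting for miR-31, 12 miRNAs known from other work as induced by TGF-β were read in the same fit. Of these, 3 were called higher by limma (miR-181a-5p, miR-181b-5p and miR-23a-3p), 1 was called lower (miR-10b-5p) and 8 were not called, compared with 2.61% higher and 1.37% lower over all miRNAs in the same fit. miR-23a-3p, also a bright probe, had a log2 fold change of 0.29 (limma, adjusted p = 0.00483, standard error 0.048), which is close to that of miR-31-5p with a smaller standard error. The share of all miRNA probes detected on all arrays, 49.98%, is the background for the following lists. Of 6 miRNAs of epithelial cells, 2 were detected on all arrays (miR-200a-3p and miR-200b-3p), and miR-141-3p was detected on none. Of 4 miRNAs of acinar and islet cells, miR-148a-3p was detected on all arrays and miR-217 on none. Of 6 miRNAs of blood cells, 2 were detected on all arrays, miR-150-5p at 12.3 to 19.5 SDs above the blank mean and miR-142-3p at 2.15 to 10.1.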

How the data were processed

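miRNA expression was profiled in Panc-1 cells on 6 arrays of 3200 spots (3D-Gene), 3 control and 3 with TGF-β. For each spot and its local background, the authors deposited the median intensity at 635 nm from the scanner, linear and not normalized, together with a table of processed intensities, whose method is not given in the sources used here. The latter were rebuilt by subtracting the mean of the 320 blank spots (5% left out at each end) and scaling the median of the detected miRNAs to 25, and differed from the deposited values by 0.499923 at most.

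Here the blank mean was subtracted, values were floored at 1 unit, and log2 values of miRNA probes were quantile normalized and compared with limma 3.58.1 in R 4.3.3 (lmFit and eBayes with a trend), with Benjamini-Hochberg adjustment over 1457 miRNAs. Flagged spots were missing (3 miRNA spots, none of miR-31). Exact permutation tests were 2-sided, and intervals of the arm difference assume equal spread in the groups. The number of arrays limits the precision. Sequences and positions are from RefSeq (GRCh38.p14), while the array files name no build. Python 3.11.15 and matplotlib 3.10.9 were used for the figures.

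The members, lists, tests and alternatives were chosen with earlier results of these data known, and the blank-spot background for that reason. The median and 10% of brightest miRNAs, the control spots and the arm ratio without normalization were looked at after the data were seen. Named are both arms, list members close to a statement, the 5 miRNAs of most similar pattern and the closest sequences. On simulated arrays (5 runs of 1562 to 1576 miRNAs), 87.4% of the miRNAs changed by 1 on the log2 scale were found and 6.57% of calls were false. The simulation had a common noise level on the log2 scale and no difference between slides. It does not show how often changes as small as those of miR-31 would be called.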

Additional observations from a re-analysis of the deposited data

How the results depend on the processing

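Over 22 alternatives, miR-31-5p was higher in TGF-β-treated cells in 22 and called in 4, and miR-31-3p was higher in 20 and called in 1. miR-31-5p was called with median scaling (0.55), 75th percentile scaling (0.51), limma with a robust fit (0.32, adjusted p = 0.0316) and the replicate block (0.32, adjusted p = 0.0341), and miR-31-3p with median scaling (0.38). When single arrays were left out, the log2 fold change was 0.21 (without TGF-β replicate 3) to 0.38 for miR-31-5p and 0.23 (without TGF-β replicate 1) to 0.43 for miR-31-3p, with adjusted p of 0.0882 to 0.209 and 0.0992 to 0.326 from limma. With the local background, miR-31-3p was -0.11 (offset 50) and -0.20 (offset 0), and the change in the arm difference was 0.33 and 0.23.

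The count of called miRNAs was 58 and fell to 0 with the local background at either offset (limma, with 34 at an unadjusted p under 0.05), 35 without normalization, 31 with the deposited values, 19 without a filter on dim probes, 32 without the trend and 17 by the methods' t-test after adjustment. Leaving out 1 array gave 25 (without TGF-β replicate 2) to 51, with 33 without TGF-β replicate 3 and 35 without control replicate 2. The cause was not tested. The replicate block gave 60 calls. The replicate numbers were not taken as pairs, since same-numbered arrays had correlations of their deviations of 0.13, 0.11 and -0.027.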
